A study of Mus musculus with 5 samples.

Results

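A set of 10 genes that mark astrocytes, chosen by symbol, was followed through ribosome-bound RNA that had been purified from Drd2 neurons of the central amygdala (CeA). The genes were Aldoc, Aqp4, Gfap, Slc1a2, Slc1a3, Gja1, Aldh1l1, Glul, S100b and Gjb6. All 10 were among the 15093 genes of the table, and each passed the filter on low values used for testing (a mean of at least 1), which left 13560 genes.

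RNA was obtained by translating ribosome affinity purification (TRAP), in which an EGFP-tagged ribosomal protein is pulled down together with the mRNA it is translating. Every animal in both groups was an adult Drd2-TRAP mouse, in which a Drd2-Cre transgene switches on the tagged protein Rpl10a from the Rosa26 locus, so the tag marks cells that express or have expressed Cre and not astrocytes as such. There were 3 fear conditioned libraries (replicates 2, 3 and 4) and 2 home cage control libraries (replicates 6 and 7), each from bilateral 1 mm punches pooled from 3 animals, and the pools are the replicates. The labels call the controls home cage and place collection 2 h after extinction, whereas the paper's results describe tone exposure without shock and collection after conditioning. Values are in counts per 1000000 of an effective library size (CPM), and the reads behind them were recovered as whole multiples of what 1 read is worth in a library. Recovered reads on genes numbered between 19605318 and 27937520 per library. Home cage replicate 7 had 2681 genes listed at 0, home cage replicate 6 had 976, and the fear conditioned libraries had between 159 and 349.

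Astrocytes are glia that clear glutamate from synapses, buffer water and ions, and supply neurons with metabolites. The transporters encoded by Slc1a2 and Slc1a3 carry glutamate into the astrocyte, where glutamine synthetase (Glul) converts it to glutamine that is handed back to neurons. Astrocytes are joined into networks by gap junctions built from the connexins Gja1 and Gjb6, and their endfeet on blood vessels carry the water channel Aqp4.

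By limma none of the 10 genes passed the comparison of fear conditioned with home cage libraries, and neither did any other gene. DESeq2 on recovered reads called 4 of the 10 and 1296 of the 14489 genes it tested. All 10 were above every fear conditioned library in home cage replicate 6. In home cage replicate 7 the genes parted. Slc1a2, Gja1, Glul and Gfap were at their highest value of any library there, Aldoc and Slc1a3 were also above every fear conditioned library, Aqp4 lay among the fear conditioned libraries, and S100b, Aldh1l1 and Gjb6 lay below them. The plot of values by library shows this division.

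**Figure D1:**
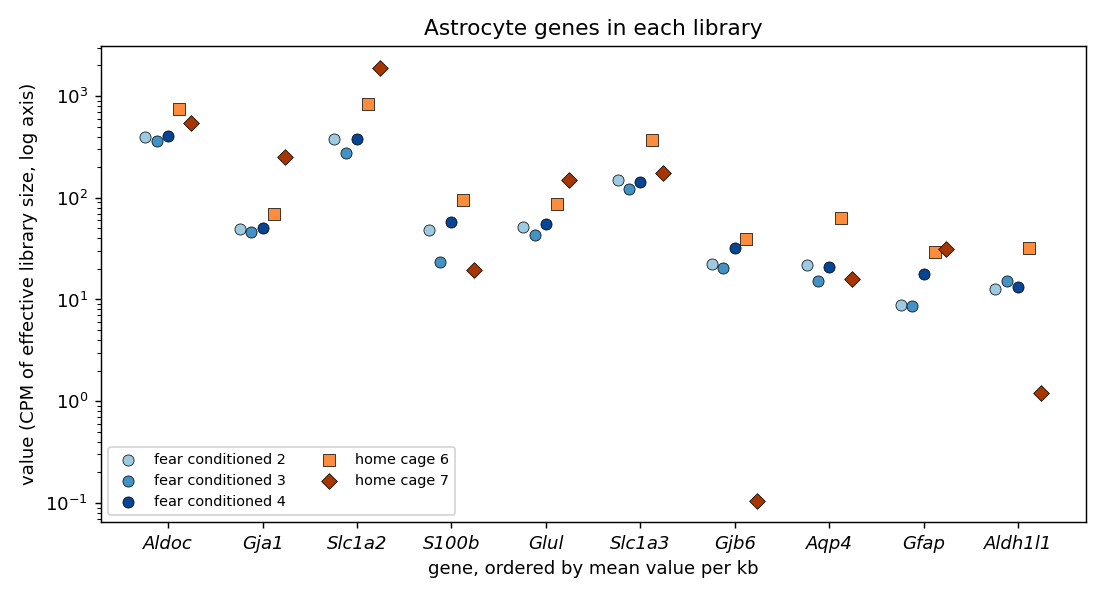
Value of each of the 10 astrocyte genes (x axis, ordered by mean value per kb) in each library (y axis, CPM on a log axis). Circles are the 3 fear conditioned libraries, squares home cage replicate 6 and diamonds home cage replicate 7. The circles lie close together for most genes, while the diamonds run from 1905 CPM for Slc1a2 down to 0.105 CPM for Gjb6.

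The sequences before the start sites of both transporters and both connexins are shown because these related pairs had proportions in home cage replicate 7 unlike those in the other libraries. Each is the 250 bases upstream of the start in RefSeq's promoter table (build GRCm38.p6), read 5′ to 3′ on the gene's strand. The coordinates are chr2:102706188-102706437 on the plus strand for Slc1a2, chr15:8710808-8711057 on the minus strand for Slc1a3, chr10:56377050-56377299 on the plus strand for Gja1 and chr14:57133612-57133861 on the minus strand for Gjb6. Capitals mark matches to 5 motifs searched in these windows.
Slc1a2: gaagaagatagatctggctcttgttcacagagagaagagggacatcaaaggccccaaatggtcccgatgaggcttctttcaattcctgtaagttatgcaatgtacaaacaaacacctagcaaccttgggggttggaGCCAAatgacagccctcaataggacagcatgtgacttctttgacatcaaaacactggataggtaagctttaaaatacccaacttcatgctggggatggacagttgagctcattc
Slc1a3: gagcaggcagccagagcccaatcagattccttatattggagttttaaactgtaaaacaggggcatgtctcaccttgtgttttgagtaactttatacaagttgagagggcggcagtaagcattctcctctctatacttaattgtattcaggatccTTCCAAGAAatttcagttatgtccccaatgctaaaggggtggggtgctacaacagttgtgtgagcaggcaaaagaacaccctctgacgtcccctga
Gja1: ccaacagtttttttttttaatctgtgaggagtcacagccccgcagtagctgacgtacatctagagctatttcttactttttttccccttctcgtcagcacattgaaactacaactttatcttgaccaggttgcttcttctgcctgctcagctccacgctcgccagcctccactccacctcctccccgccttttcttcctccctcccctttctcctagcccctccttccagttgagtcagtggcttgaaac
Gjb6: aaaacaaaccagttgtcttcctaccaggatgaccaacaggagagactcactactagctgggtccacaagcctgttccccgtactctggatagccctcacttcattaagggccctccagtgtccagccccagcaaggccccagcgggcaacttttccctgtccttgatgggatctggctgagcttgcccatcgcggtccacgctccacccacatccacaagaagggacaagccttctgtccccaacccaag

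The motifs were the full palindromic NFI site, the shorter NFI core TTGGC that lies within it, a SOX core (AACAAT) and a STAT site (TTCNNNGAA), each on both strands, and a TATA box (TATAAA) on the gene's strand. In the windows shown, Slc1a2 held 1 NFI core whose first base lay 114 bases before the start, and Slc1a3 held 1 STAT match that began 96 bases before it. None of the 5 motifs was matched in the Gja1 or Gjb6 window. In all, 9 of the 10 genes were matched in the table (all but Aqp4), with 10 windows because Aldoc has a pair. The NFI core was in 4 of the 10 windows (those of Glul, Slc1a2 and S100b, and 1 of Aldoc) and in 41.5% of all 32851 windows. The STAT letters were in 2 of the 10 and in 7.02% of all windows, the SOX core in 0 and 9.42%, the TATA letters in 0 and 7.59%, and the full NFI site in 0 and 0.0365%. These matches are letters in a window and were not tested as binding sites.

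Among the genes of glutamate uptake, Slc1a2 (ENSMUSG00000005089) had 377, 274 and 381 CPM in fear conditioned replicates 2, 3 and 4, and 843 and 1905 CPM in home cage replicates 6 and 7. Both home cage libraries were above all fear conditioned libraries, and they were themselves 2.26-fold apart (95% exact counting interval 2.22 to 2.30). On the log2(value + 1) scale, fear conditioned minus home cage, limma gave a fold change of -1.89 with a standard error (SE) of 0.39 (p adjusted over all genes tested by Benjamini-Hochberg = 0.197). No gene tested had a smaller adjusted p, but other genes shared this value. Nfia and Ednrb were among them, both with a smaller unadjusted p by limma than Slc1a2. The Slc1a2 estimate was -2.48 without home cage replicate 6 and -1.31 without replicate 7.

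Slc1a3 (ENSMUSG00000005360), the other astrocytic glutamate transporter, stood at 148, 121 and 144 CPM in the fear conditioned group, against 368 and 174 CPM in home cage replicates 6 and 7. The groups did not overlap, but home cage replicate 7 was only just above the highest fear conditioned library. By limma its log2 fold change came to -0.88 (SE 0.35, adjusted p = 0.285), and to -0.34 without home cage replicate 6 and -1.42 without home cage replicate 7.

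Glul (ENSMUSG00000026473), which encodes glutamine synthetase and is also made by oligodendrocytes, stood at 51.3, 42.9 and 55.5 CPM in the fear conditioned group, against 87.0 and 149.97 CPM in home cage replicates 6 and 7. The groups did not overlap. By limma the log2 difference came to -1.19 (SE 0.32, adjusted p = 0.206), and a two-sided exact permutation test gave p = 0.1 for Glul, Slc1a2, Slc1a3, Gja1 and Aldoc, the smallest p that 3 libraries against 2 allow.

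The connexin genes differed in opposite directions between the home cage libraries. Gja1 (ENSMUSG00000050953) stood at 49.5, 46.0 and 50.1 CPM in the fear conditioned group, a span of 1.09-fold, against 69.7 and 251 CPM in home cage replicates 6 and 7. Gjb6 (ENSMUSG00000040055) stood at 22.4, 20.5 and 32.0 CPM in the fear conditioned group, at 39.8 CPM in home cage replicate 6 and at 0.105 CPM in home cage replicate 7, where only 2 reads were recovered against 1191 in replicate 6. In replicate 7, then, Gja1 was at its highest and Gjb6 at its lowest.

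For Gja1 the value in home cage replicate 7 was 3.60-fold that in replicate 6 (95% exact counting interval 3.42 to 3.79). For Gjb6 the value in replicate 6 was 377-fold that in replicate 7 (interval 104 to 3118, which covers counting error only). Between groups, limma put Gja1 at a log2 fold change of -1.43 (SE 0.53, adjusted p = 0.260) and Gjb6 at 1.93 (SE 1.42, adjusted p = 0.514). The Gjb6 estimate turned to -0.68 without home cage replicate 7 and reached 4.53 without home cage replicate 6, so its sign rests on replicate 7. The Gja1 estimate was -2.35 without home cage replicate 6 and -0.51 without replicate 7.

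Aqp4 (ENSMUSG00000024411), the water channel of astrocyte endfeet, stood at 22.0, 15.2 and 21.1 CPM in the fear conditioned group, against 62.8 and 15.8 CPM in home cage replicates 6 and 7. Home cage replicate 7 thus fell within the fear conditioned range. The groups differed by -0.69 on the log2 scale (SE 0.62, 95% interval -2.20 to 0.81), -1.66 without home cage replicate 7 and 0.27 without home cage replicate 6.

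Gfap (ENSMUSG00000020932), the intermediate filament of astrocytes, stood at 8.77, 8.54 and 18.0 CPM in the fear conditioned group, against 29.2 and 31.5 CPM in home cage replicates 6 and 7. It was the gene on which the home cage libraries were closest, at 1.08-fold (exact counting interval 0.971 to 1.20), and the higher spread was among the fear conditioned libraries, at 2.11-fold. For Gfap the log2 difference by limma was -1.37 (SE 0.49, adjusted p = 0.255), with p = 0.2 in the exact permutation test.

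Aldoc (ENSMUSG00000017390), a glycolytic aldolase enriched in astrocytes, stood at 392, 365 and 404 CPM in the fear conditioned group, against 754 and 542 CPM in home cage replicates 6 and 7. The fear conditioned libraries spanned 1.11-fold and lay below both home cage libraries. By limma the groups differed by -0.72 on the log2 scale (SE 0.23, adjusted p = 0.230). Its mean CPM over the libraries, not corrected for gene length, was above that of 98.0% of the genes listed.

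Aldh1l1 (ENSMUSG00000030088), an enzyme of folate metabolism used as a general astrocyte marker, stood at 12.6, 15.2 and 13.4 CPM in the fear conditioned group, against 32.2 and 1.21 CPM in home cage replicates 6 and 7. These home cage values rest on 963 and 23 reads and were 26.5-fold apart (exact counting interval 17.6 to 42.0). Its log2 fold change of 0.78 (SE 1.11, 95% interval -1.92 to 3.47) was -1.18 without home cage replicate 7 and 2.73 without home cage replicate 6. On recovered reads it was negative with edgeR (-0.24) and DESeq2 (-0.27) but positive with limma voom (0.51).

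S100b (ENSMUSG00000033208), a calcium-binding protein of astrocytes and of some oligodendrocytes, stood at 48.3, 23.3 and 57.3 CPM in the fear conditioned group, against 94.3 and 19.6 CPM in home cage replicates 6 and 7. The fear conditioned libraries lay between the home cage libraries. It was the only member to span more than 2-fold on the log2(value + 1) scale among the fear conditioned libraries, where 8.31% of all genes did so. Its log2 difference of -0.10 (SE 0.72, 95% interval -1.85 to 1.64) became 1.00 without home cage replicate 6, 0.28 without fear conditioned replicate 3 and -1.21 without home cage replicate 7.

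Across the 10 genes the median log2 fold change was -0.80, beside 0.08 over all 13560 genes tested, with 8 genes negative and 2 positive. At an adjusted p under 0.05 with an absolute log2 fold change over 0.5, limma called 0 of the 10 and 0% of all genes. At an unadjusted p under 0.05 it gave 6 of the 10 as lower after fear conditioning, beside 7.32% of all genes, and 0 as higher, beside 9.49% (16.8% of all genes in either direction). The count was 2 without fear conditioned replicate 2 or 3 and 3 without replicate 4, and shares of all genes for those fits are not given here. The 6 were Slc1a2, Glul, Aldoc, Gfap, Gja1 and Slc1a3, and the same genes lay below both home cage libraries in every fear conditioned library, beside 16.1% of all genes. Without home cage replicate 7 all 10 lay below home cage replicate 6 (40.7% of all genes), and without replicate 6 the number was 6 (37.3% of all genes). On recovered reads neither edgeR (quasi-likelihood) nor limma voom called any of the 10 (0 of 10 each), with 6 and 5 lower at an unadjusted p under 0.05. DESeq2 called 4 (Slc1a2, Gja1, Glul and Aldoc) as lower, beside 4.42% of the 14489 genes it tested. With 1 home cage library left out, the lone control is assumed to vary as little as the fear conditioned libraries, so numbers of genes called are not given. The estimates of Gjb6, Aldh1l1, S100b and Aqp4 were positive without replicate 6 and negative without replicate 7. Those of the other members were negative in both fits.

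**Figure D2:**
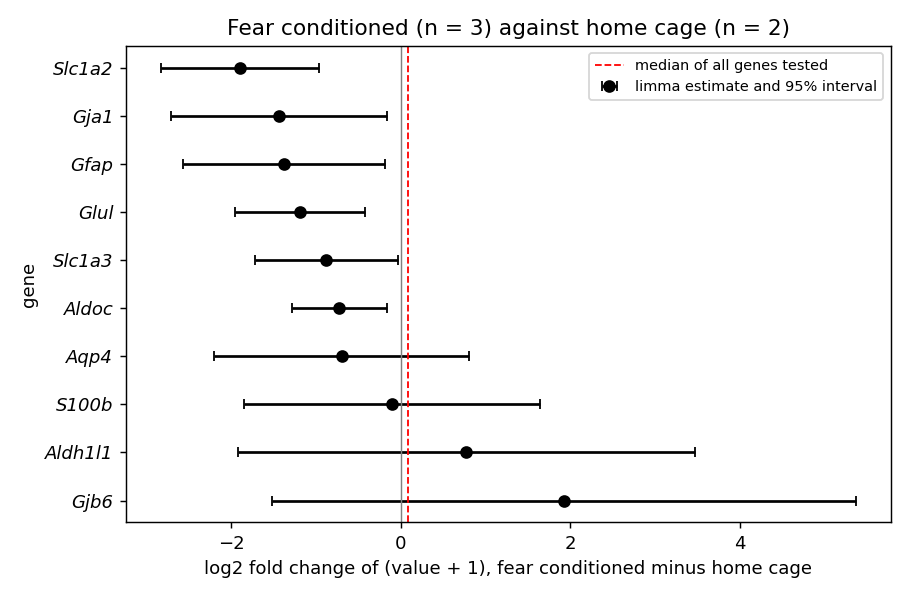
Log2 fold change of each astrocyte gene on the log2(value + 1) scale, fear conditioned (3 libraries) minus home cage (2 libraries); points are limma estimates and bars 95% intervals, and the dashed line is the median of all genes tested, 0.08. Intervals of 6 genes stay below 0 without adjustment, from Slc1a2 at -1.89 to Aldoc at -0.72, and those of Aqp4, S100b, Aldh1l1 and Gjb6 span 0.

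The spread between the control libraries was then set beside that of all genes. In home cage replicate 6 all 10 genes were above every fear conditioned library, where 40.7% of all genes were. In home cage replicate 7, 6 of the 10 were above every fear conditioned library (37.3% of all genes) and 3 were below (50.2% of all genes). On the log2(value + 1) scale, replicate 7 was more than 2-fold above replicate 6 for 2 genes, Gja1 and Slc1a2 (19.6% of all genes), and more than 2-fold below it for 5 genes, Gjb6, Aldh1l1, S100b, Aqp4 and Slc1a3 (33.1% of all genes). The median absolute log2 ratio between the 2 home cage libraries was 1.504 for the 10 genes and 1.08 for all genes. Among the 3 fear conditioned libraries the median log2 range was 0.42 for the 10 genes and 0.44 for all genes. The home cage libraries thus differed more from each other than the fear conditioned libraries did, for the astrocyte genes and for genes in general.

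**Figure D3:**
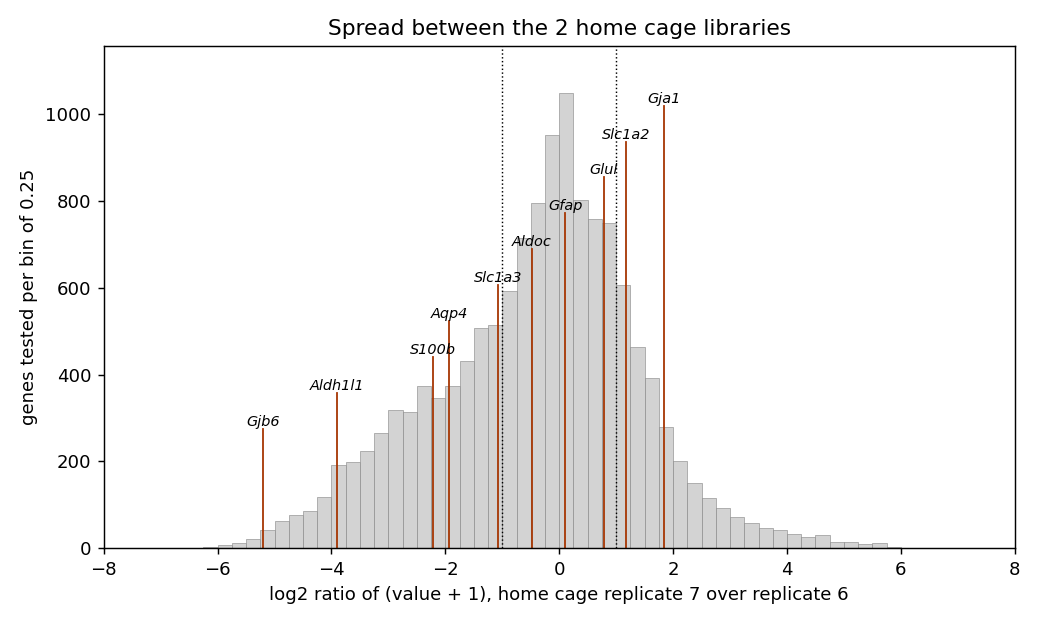
Log2 ratio of home cage replicate 7 over replicate 6 on the log2(value + 1) scale (x axis) for all 13560 genes tested (grey, genes per bin on the y axis), with the 10 astrocyte genes as labelled lines whose heights carry no value. Dotted lines mark a 2-fold difference; Gjb6 lies at -5.20 and Gja1 at 1.83.

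For 4 pairs of members, proportions within a library set home cage replicate 7 apart from the rest. No share over other gene pairs was computed. Replicate 7 was more than 2-fold above replicate 6 for 19.6% of all genes and below it for 33.1%. Such ratios were therefore not shown to be particular to these pairs. The ratio of Slc1a2 to Slc1a3 reads was 2.55, 2.27 and 2.65 in the fear conditioned libraries, 2.29 in home cage replicate 6 and 11.0 in replicate 7 (95% exact counting interval 10.6 to 11.4). The ratio of Gja1 to Gjb6 reads was 2.21, 2.24 and 1.57 in the fear conditioned libraries, 1.75 in home cage replicate 6 and 2378 in replicate 7 (interval 658 to 19642). The ratio of Glul to Aldoc reads lay between 0.115 and 0.137 in the first 4 libraries and was 0.277 in home cage replicate 7. That of Gfap to Aqp4 was more variable, from 0.398 to 0.854 in the first 4 libraries and 2.00 in replicate 7. Home cage replicate 6 lay within the fear conditioned range for 3 of these 4 ratios and just under it for Glul to Aldoc, and replicate 7 lay above that range for all 4.

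Summed over the 10 genes, the level came to 1131, 932 and 1177 CPM for fear conditioned replicates 2, 3 and 4 (1080 ± 130 CPM, SD, n = 3) and 2380 and 3089 CPM in home cage replicates 6 and 7 (2734 ± 502 CPM, SD, n = 2). Both home cage sums were above all fear conditioned sums, and the ratio of the group means was 2.53 for home cage over fear conditioned. Slc1a2 made up between 29.4% and 35.4% of the sum in 4 libraries and 61.7% in home cage replicate 7, and Aldoc between 31.7% and 39.2% in 4 libraries and 17.5% in replicate 7. In a pull-down from pooled punches, the number of cells of a type, their RNA per cell and the share of RNA from untagged cells cannot be told apart.

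Sums over markers of other cell types also lay apart between the groups, as the plot of marker sums shows. Genes of choroid plexus, the epithelium that makes cerebrospinal fluid, were led by Ttr and summed to between 108 and 183 CPM after fear conditioning and to 2212 and 1897 CPM in home cage replicates 6 and 7. Their list of 8 had 2, 1 and 1 genes at 0 in fear conditioned replicates 2, 3 and 4, and 2 in home cage replicate 7. Ependymal genes, 5 listed and led by Dynlrb2, with up to 3 at 0 in a library, summed to between 2.42 and 2.79 CPM and to 11.3 and 6.38 CPM. Oligodendrocyte genes, all 10 of which were above 0 in every library, summed to between 1329 and 2827 CPM after fear conditioning and to 2899 and 5541 CPM in the home cage libraries. The 5 genes of oligodendrocyte precursors, led by Gpr17, had sums between 25.2 and 33.5 CPM and of 89.2 and 92.9 CPM.

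Vascular genes (10 listed, led by Rgs5, with 2 and 1 at 0 in home cage replicates 6 and 7) summed to between 24.1 and 64.1 CPM after fear conditioning and to 139 and 108 CPM in the home cage libraries. The 10 microglia genes, led by Csf1r, summed to between 75.7 and 138 CPM and to 159 and 139.9 CPM. Of these, 4 had a positive log2 fold change. In every fear conditioned library 2 of the 10 lay above both home cage libraries (20.2% of all genes) and 3 lay below both (16.1% of all genes). In the opposite direction, 8 genes of Drd2 projection neurons, led by Penk, summed to between 22322 and 24178 CPM after fear conditioning and to 8217 and 13949 CPM in home cage replicates 6 and 7. The 5 measured pan-neuronal genes, led by Snap25, had sums between 7580 and 9727 CPM after fear conditioning and of 6854 and 5897 CPM in the home cage libraries. Single genes went against their list. Among genes tested, 1 each of the choroid plexus, oligodendrocyte, precursor and vascular lists had a positive log2 fold change. In the pan-neuronal list 1 gene had a negative log2 fold change. The part of these cell types in the astrocyte values was not tested.

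**Figure D4:**
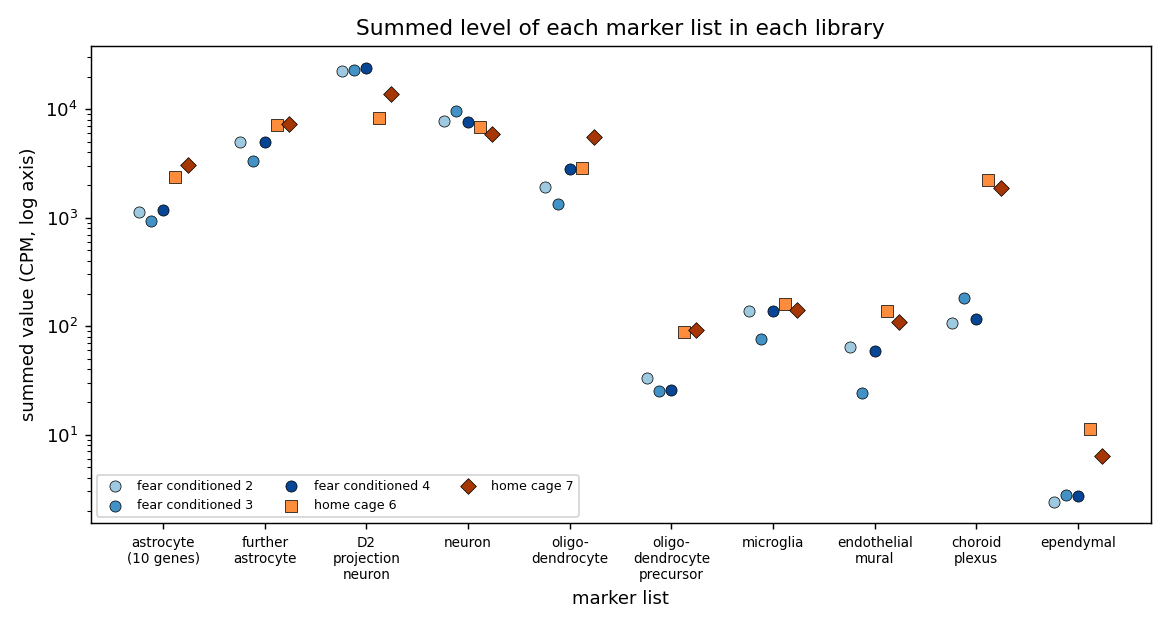
Summed value of each marker list (x axis) in each library (y axis, CPM on a log axis); circles are fear conditioned libraries, the square home cage replicate 6 and the diamond home cage replicate 7. Home cage symbols lie above the circles for the astrocyte lists and for the other glial, vascular, choroid plexus and ependymal lists, and below them for both neuronal lists.

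Levels of different genes were compared per kb of the deposited gene length. Aldoc had the highest level per kb in every library, from 110.4 to 228 CPM per kb. By the mean over the 5 libraries it was followed by Gja1 (60.9 CPM per kb), Slc1a2 (57.2), S100b (32.8), Glul (23.3), Slc1a3 (19.7), Gjb6 (8.20), Aqp4 (5.16), Gfap (4.57) and Aldh1l1 (3.38). The order varied between libraries, with S100b second in fear conditioned replicates 2 and 4 and Slc1a2 second in home cage replicate 6. Over the 5 libraries, every gene's range overlapped that of its neighbour in this order. Within the fear conditioned libraries the ranges were apart between Aldoc and Gja1, Gja1 and Slc1a2, Slc1a3 and Gjb6, and Gjb6 and Aqp4, and overlapped between the other neighbours. Gfap ranked between 7 and 10 of the 10 in every library, so the filament gene by which astrocytes are often stained was among the lowest here.

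Further astrocyte genes were taken from 6 lists by role, 64 in all, of which 59 were in the table and 58 tested; Thbs4, Lcn2, Steap4, Cxcl10 and Timp1 were not analysed here. Of the 58, 44 had a negative and 14 a positive log2 fold change, with a median of -0.69 beside 0.08 over all genes. None passed with limma, and at an unadjusted p under 0.05 there were 22 lower (7.32% of all genes) and 1 higher (9.49% of all genes). All fear conditioned libraries lay below both home cage libraries for 26 of the 58 (16.1% of all genes) and above both for 2 (20.2% of all genes). The 26 became 34 without home cage replicate 6 (37.3% of all genes) and 41 without replicate 7 (40.7% of all genes). DESeq2 on recovered reads called 15 of the further genes, 14 as lower and 1 as higher, beside 4.42% and 4.53% of the 14489 genes it tested. EdgeR and limma voom called 0, with 22 and 20 lower at an unadjusted p under 0.05.

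**Figure D5:**
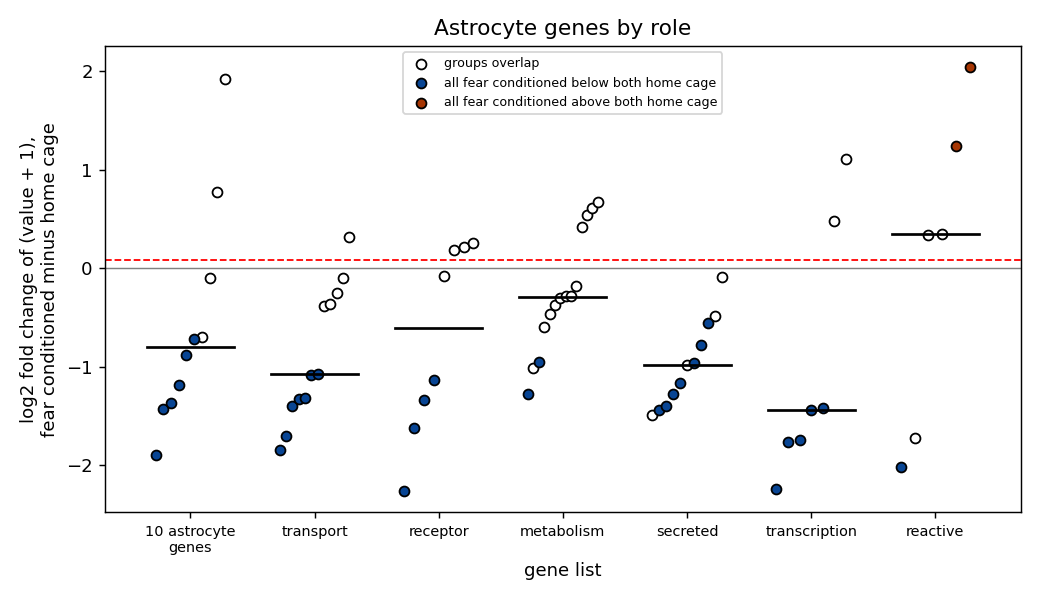
Log2 fold change on the log2(value + 1) scale, fear conditioned minus home cage (y axis), of the 10 astrocyte genes and of 58 further astrocyte genes by role (x axis); horizontal bars are list medians and the dashed line is the median of all genes, 0.08. Filled points have no overlap between the groups; medians run from -1.44 for transcription factors to 0.34 for genes of reactive astrocytes.

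No test compared the role lists with each other. Transcription factors of astrocytes had a median of -1.44, with 5 of 7 genes below both home cage libraries in every fear conditioned library (16.1% of all genes). Nfia, a factor of astrocyte development, stood at 13.5, 15.3 and 17.5 CPM in the fear conditioned group, against 65.1 and 89.4 CPM in the home cage libraries, or -2.24 on the log2 scale (SE 0.34, limma adjusted p = 0.197). Id3, an inhibitor of basic helix-loop-helix factors, differed by -1.42 on the log2 scale (SE 0.56), by -2.12 without home cage replicate 6 and by -0.71 without replicate 7. Sox2, a factor of glial and neural stem cells, stood at 27.4, 22.3 and 22.1 CPM in the fear conditioned group, against 27.5 and 3.64 CPM in home cage replicates 6 and 7. It thus resembled Gjb6 and Aldh1l1 in being lowest in replicate 7, and its log2 fold change of 1.11 turned to -0.20 without that library.

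Transport and ion genes had a median of -1.08, with 7 of 12 below both home cage libraries, and receptor genes a median of -0.61, with 4 of 8 below both (16.1% of all genes). Ednrb, the endothelin receptor, stood at 14.0, 13.8 and 23.7 CPM in the fear conditioned group, against 64.6 and 108 CPM in the home cage libraries, or -2.27 on the log2 scale (SE 0.42, limma adjusted p = 0.197). Ntsr2, a neurotensin receptor of astrocytes, differed by -1.14 on the log2 scale (SE 0.35).

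Secreted and matrix genes had a median of -0.98, and 7 of 11 lay below both home cage libraries (16.1% of all genes). Cst3, a secreted protease inhibitor, stood at 831, 399 and 770.4 CPM in the fear conditioned group, against 861 and 1015 CPM in the home cage libraries (log2 fold change -0.56, SE 0.37, and -0.22 without fear conditioned replicate 3). Metabolic genes had a median of -0.29, and 2 of 14 lay below both home cage libraries, a share near that of all genes (16.1%). Mt3, a metallothionein, stood at 292, 168 and 211 CPM in the fear conditioned group, against 152 and 522 CPM in home cage replicates 6 and 7, and its log2 fold change of -0.37 turned to 0.51 without replicate 7. It was lowest of all libraries in home cage replicate 6 and highest in replicate 7.

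Genes of reactive astrocytes, of which 6 were tested, had a median of 0.34 and lay on both sides. Vim, an intermediate filament like Gfap that is also made by vascular and ependymal cells, stood at 4.65, 2.33 and 5.21 CPM in the fear conditioned group, against 12.4 and 28.4 CPM in the home cage libraries (log2 fold change -2.02, SE 0.63). Serpina3n, a secreted serpin induced in reactive glia, was represented by 141, 56 and 52 reads in the fear conditioned group, against 1 and 3 reads in home cage replicates 6 and 7, at or under the floor of 3 reads. Cd44, a hyaluronan receptor, stood at 2.75, 2.21 and 5.91 CPM in the fear conditioned group, against 0.167 and 1.90 CPM in the home cage libraries (log2 fold change 1.25, SE 0.68, which was 0.59 without home cage replicate 6, 1.90 without replicate 7 and 0.58 after quantile normalization). Of the 58 further genes tested, Serpina3n and Cd44 were the 2 for which every fear conditioned library was above both home cage libraries (20.2% of all genes).

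The mean profile of the 10 genes over the libraries, each gene centred on its own mean log2(value + 1), was -0.20, -0.46 and -0.01 in fear conditioned replicates 2, 3 and 4, 0.88 in home cage replicate 6 and -0.21 in home cage replicate 7. The profile is thus high in replicate 6 only, with members of both signs in replicate 7. Among 9266 other genes with a mean of at least 10 CPM, those nearest to this profile included Amotl1, Pnpla2, Phgdh, Abca3, Cttnbp2, Parm1, Plxna4, Dync2h1 and L1cam, with root mean square differences between 0.0400 and 0.104 log2 units over the 5 libraries. Phgdh, the first enzyme of serine synthesis, stood at 14.8, 11.0 and 16.2 CPM in the fear conditioned group, against 34.96 and 14.3 CPM in the home cage libraries. The members themselves lay between 0.175 (Slc1a3) and 1.78 (Gjb6) from their mean. The nearest genes were picked out of 9266 for closeness to it, so their smaller distances follow from that choice.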

How the data were processed

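Sequencing libraries were made from ribosome-bound RNA with a SMARTer kit and NexteraXT, and the study's methods name Tuxedo and DESeq for the analysis. The submitters' processing notes name DESeq and mm8. The aligner, versions and use of strand are not given in the sources used here, so reads of RefSeq genes that overlap 4 members (Aqp4, Slc1a2, Aldh1l1 and Glul) could be counted with them.

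The authors deposited a normalized signal per gene and library, in counts per 1000000 of an effective library size, with a gene length. Library sums lay between 932938 and 1042030, and 100% of the values were whole multiples of 1 read within 0.01. A floor of 3 reads and exact (Clopper-Pearson) 95% intervals of read ratios cover counting error only, as amplified reads are not independent molecules. Each library is labelled a separate pool of animals, and p-values measure only the spread between these pools.

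Fear conditioned and home cage libraries were compared with limma 3.58.1 (lmFit, eBayes with a trend) on log2(value + 1), which understates the change of low genes, two-sided, with Benjamini-Hochberg adjustment over genes with a mean of at least 1. Single genes were also given an exact permutation test over samples (10 arrangements). Members, lists and tests were chosen with earlier results of these data known. Named besides the members were the gene highest per kb in each further list, the 3 further genes with the largest log2 fold change in each direction, the 10 genes nearest to the mean member profile and the highest gene of each other marker list; some genes that this rule names are not reported here. Alternatives were a pseudocount of 0.1, other filters, quantile normalization, each library left out, and edgeR 4.0.16, DESeq2 1.42.0 and limma voom on recovered reads. Fits were run on simulated data in which all genes and libraries were given the same dispersion. That simulation does not cover the wider spread between the home cage libraries. Tables were made in Python 3.11.15 (pandas 2.3.3; numpy 2.4.6), exact tests in scipy 1.17.1, fits in R 4.3.3 and plots in matplotlib 3.10.9.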

Additional observations from a re-analysis of the deposited data

How the results depend on the processing

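No paired analysis was possible because the groups share no replicate numbers. With single libraries left out, the number of the 10 genes that passed ranged from 0 to 6, that of all genes from 0 to 7956 (1 without fear conditioned replicate 3), and that of the further astrocyte genes from 0 to 38; the highest counts came without 1 home cage library. DESeq2 on recovered reads passed 4 of the 10 genes, 1296 of the 14489 genes it tested and 15 of the further genes. The pseudocount, filter, quantile, edgeR and voom alternatives passed 0. The number of the 10 at an unadjusted p under 0.05 and lower ranged from 2 (without fear conditioned replicate 2 or 3; 3 without replicate 4) to 9 (without home cage replicate 7), and from 5 to 6 otherwise; for the further genes the ranges were 14 to 29 and 20 to 27. The number of the 10 with no overlap ranged from 6 to 10 with single libraries left out, and was 6 under quantile and TMM scaling. For the further genes it ranged from 26 to 41, and was 26 and 24. The highest counts came without home cage replicate 7, where the share of all genes was 40.7%. These alternatives for unadjusted and no-overlap counts were chosen after seeing the data. After quantile normalization 1 gene, in place of 2, was more than 2-fold higher in home cage replicate 7 than in replicate 6.

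Directions turned with a library left out for Aqp4 (-1.66 to 0.27), Aldh1l1 (-1.18 to 2.73), S100b (-1.21 to 1.00), Gjb6 (-0.68 to 4.53), Mt3 (-1.26 to 0.51) and Sox2 (-0.20 to 2.42), and for Aldh1l1 with edgeR (-0.24) and DESeq2 (-0.27). The cause was not tested. The median of the 10 genes stayed between -1.19 and -0.41 over all alternatives, while that of all genes lay between -0.07 and 0.25. The summed level of the 10 genes stayed between 1032 and 1154 CPM after fear conditioning and between 2380 and 3089 CPM in the home cage group. In home cage replicate 7 the values of Gjb6 and Aldh1l1 rest on 2 and 23 reads.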
